A study of Mus musculus with 12 samples.

Results

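Potassium channel genes were taken as every row of the count table whose symbol begins with Kcn followed by a lower-case letter. The pattern matched 98 rows, of which 3 were left out: the noncoding Kcnq1ot1 and the choroid plexus genes Kcnj13 and Kcne2. The remaining 95 genes of the 24421 in the table are described here by channel class, by level and across genotypes. They include 4 genes without a channel class, the noncoding Kcnmb4os1, Kcnmb4os2 and Kcnd3os and the coding Kcnrg. Only Kcnmb4os2 of these had enough counts to be tested, and the counts of members below include it. The table came from 3′ mRNA sequencing of mouse hippocampus at 2 months of age, in 12 libraries of 4 genotypes with 3 libraries each, all from animals given BrdU, a label of dividing cells.

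WT mice carried neither change. 5xFAD is a transgenic model of familial Alzheimer's disease in which mutant human genes are driven by the Thy1 promoter, which is active mainly in neurons. p75NTRko mice are labelled as lacking the neurotrophin receptor p75NTR, the product of Ngfr, and 5xFAD/p75NTRko mice are the cross of both. The labels call the 3 libraries of a genotype biological replicates without naming the animals, so that p-values measure the spread between these libraries.

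Library depth was 4316739 to 6683613 gene-assigned counts, and potassium channel genes took 0.369% to 0.414% of them. Thy1 stood at 688 to 939.8 CPM (the count scaled to a common library total) in the 6 libraries without the transgenes and at 1596 to 4019 CPM in the 6 with them. Ngfr had 1 to 12 counts in WT and 5xFAD libraries and 32 to 64 in those labelled p75NTRko and 5xFAD/p75NTRko. It was thus higher, not lower, in the libraries labelled as lacking the receptor. Where the reads lie relative to the deleted part was not tested, so this count does not check the deletion, and these libraries are called p75NTRko and 5xFAD/p75NTRko by their labels only. Xist, which is expressed from the inactive X chromosome of females, was at 359.7 to 439 CPM in all WT and 5xFAD/p75NTRko libraries and in p75NTRko replicate 1, and at 1.53 to 3.58 CPM in the other libraries, which include all 3 of 5xFAD. WT replicates 1 and 2 and 5xFAD/p75NTRko replicate 3 stood apart from the rest: they were the 3 lowest on the first principal component, which held 22.7% of the variance. Their dentate gyrus marker score, the mean log2 CPM of 8 markers, was 3.65 to 3.70, against 4.12 to 4.50 in the other libraries. Leaving these 3 out leaves WT with replicate 3 alone, so that values without them set a group against 1 WT library, with the spread taken from the other genotypes, and do not show what a difference rests on. A term for Xist class is estimated only within p75NTRko, from replicate 1 against replicates 2 and 3.

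Potassium channels let potassium leave or enter the cell down its gradient and thereby set the resting potential, end the action potential and limit repetitive firing. Voltage-gated (Kv) channels and calcium- or sodium-activated channels are tetramers that open on depolarization or a rise in the ion. Inward rectifiers (Kir) and K2P leak channels carry current near rest, and the Kir channels of glia take up potassium released by neurons. Auxiliary subunits do not form a pore but alter the gating, trafficking or pharmacology of the pore subunits.

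What joins the pore-forming members is the selectivity filter, so its coding sequence is shown for several of the genes that lead their families or the comparisons below. The known signature is threonine or serine, any residue, glycine, then tyrosine, phenylalanine or leucine, and glycine. It was searched on the coding strand, in frame, in the longest coding sequence of each gene in GENCODE M21, whose build, GRCm38, is the mm10 of the count files. Capitals mark the signature codons and lower case the 15 bases on either side.
Kcnj3: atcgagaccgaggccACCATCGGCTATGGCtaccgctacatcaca
Kcnj9: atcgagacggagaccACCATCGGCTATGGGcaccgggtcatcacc
Kcnj4: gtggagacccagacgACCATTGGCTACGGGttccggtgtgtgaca
Kcna2: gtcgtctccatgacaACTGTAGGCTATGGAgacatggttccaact
Kcnc2: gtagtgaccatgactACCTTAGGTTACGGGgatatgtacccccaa
Kcnd2: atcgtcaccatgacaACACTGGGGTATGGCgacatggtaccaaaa
Kcnma1: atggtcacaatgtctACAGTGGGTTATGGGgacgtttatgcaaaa
Kcnt1: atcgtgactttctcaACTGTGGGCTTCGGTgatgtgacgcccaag
Kcnk2, first: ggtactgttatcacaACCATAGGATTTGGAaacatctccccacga
Kcnk2, second: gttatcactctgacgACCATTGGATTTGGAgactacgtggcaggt

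All 76 pore-forming members held the signature, and 0 of the 15 auxiliary members with a coding sequence did. Of 21467 other genes with a coding sequence, 5.08% held it, so the match describes the family and is not particular to it. Each of the 14 K2P members, whose subunits carry a pair of pore loops, matched 2 times, as did Kcna6 and Kcnh2, which have a single pore loop. The fourth codon was TAT or TAC in 12 inward rectifiers and TTT or TTC in the other 2, Kcnj8 and Kcnj11, the pores of the ATP-sensitive channels. It was TTT or TTC in both Kcnt members and in a match of each of the 8 Kcnh members, while the other match of Kcnh2 had another codon.

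Of the 95 members, 65 had enough counts to be tested and 30 did not. A 3′ read stands for a transcript whatever the gene's length, so levels are given as CPM on scaled library sizes without a length term. A level also depends on whether the 3′ end of the gene is annotated, which was not tested for any member. Ranks and family shares are therefore those of counted reads, and a low level may be a missed 3′ end. Means over the 12 libraries reached 100 CPM in 14 members, lay from 10 to 100 CPM in 30 and were lower in the other 21 tested members. The 10 highest members held 59.2% of the summed level of the class. Among them were Kcnj3, Kcnj4, Kcna2, Kcnd2, Kcna1, Kcnk2, Kcnma1 and Kcnip2.

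**Figure D1:**
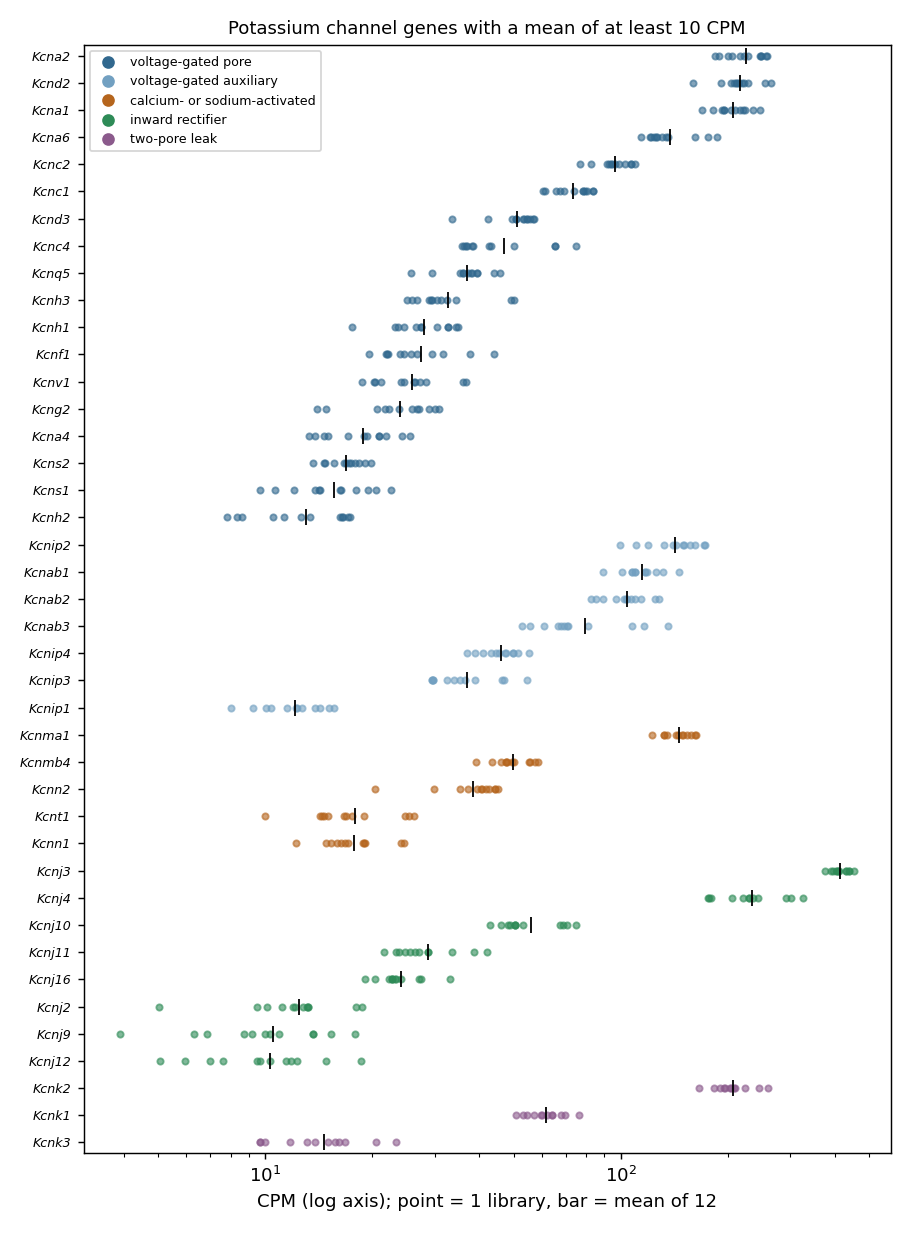
Level of members with a mean of at least 10 CPM, without a few that are not reported here, in CPM on a log axis, grouped by channel class; each point is 1 of 12 libraries and each bar their mean. Kcnj3 stood highest with a mean of 415 CPM and a narrow range, whereas Kcnab3, Kcnj4, Kcnj9 and Kcnj12 spread widely.

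Voltage-gated pore subunits made up 49.9% of the summed level. The Kcna family had several members at similar levels. Kcna2 (184, 225 and 258 CPM as lowest, median and highest of 12 libraries), Kcna1 (169, 207 and 246 CPM) and Kcna6 (114, 129 and 186 CPM) encode low-threshold channels of axons and terminals, and Kcna2 held 38.0% of the family. Kcna4, an axonal A-type subunit, was lower, with a mean of 18.8 CPM.

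Kcnd2, the main subunit of the dendritic A-type current of pyramidal cells, ranged from 159.7 to 265 CPM and held 78.5% of the Kcnd family. Among the Kcnc genes, which allow fast spiking, the means were 96.1 CPM for Kcnc2, 73.4 CPM for Kcnc1 and 47.0 CPM for Kcnc4. Kcnh3 led the EAG, ERG and ELK group with 32.7 CPM. Kcnf1 led the electrically silent subunits, which work only by joining other Kv subunits, with 27.4 CPM.

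Auxiliary subunits of the Kv channels made up 14.2% of the summed level. Kcnip2, a calcium sensor that speeds Kcnd channels, had a mean of 142 CPM and held 59.7% of the Kcnip family. The Kv beta subunits, cytoplasmic partners of Kcna channels, were spread over 3 genes, with means of 115 CPM for Kcnab1, 104 CPM for Kcnab2 and 79.5 CPM for Kcnab3. The MinK-related genes were low, led by Kcne1l with 9.47 CPM.

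Calcium- and sodium-activated members made up 7.48%. Kcnma1, the BK channel pore, had 122 to 163 CPM, and Kcnmb4, its neuronal beta subunit, a mean of 49.8 CPM. Kcnn2, an SK channel of the afterhyperpolarization, stood at 20.3, 40.6 and 45.2 CPM, and Kcnt1, the sodium-activated channel, at 9.96, 16.7 and 26.2 CPM.

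Inward rectifiers made up 20.7%. Kcnj3, a G-protein-gated subunit that carries slow synaptic inhibition, was the highest member of all with 375.4, 409 and 453 CPM and held 96.1% of its family. Its neuronal partners Kcnj6 and Kcnj9 had means of 5.73 and 10.5 CPM, and Kcnj5, mainly a cardiac partner, 0.428 CPM, which is under the level of 3 counts. Kcnj4 led the classical rectifiers with 235 CPM, or 89.9% of that family. Kcnj10, the main potassium channel of astrocytes, had a mean of 56.0 CPM, and Kcnj16, which joins it, 24.0 CPM. K2P members made up 7.60%, most of it from Kcnk2 (166, 204 and 260.2 CPM), a mechanosensitive leak channel, and Kcnk1 (50.9, 61.1 and 76.2 CPM).

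Among the members too low to test, Kcna10, Kcna3, Kcnh6, Kcnj1, Kcnk16, Kcnk18 and Kcnmb3 had 0 counts in every library, which allows up to 3 counts, or 0.446 to 0.690 CPM depending on the library. A further 9 had 1 to 3 counts at most, among them Kcna7, Kcne1, Kcnj15, Kcnk15, Kcnk5, Kcnk9, Kcnmb4os1 and Kcnv2. Kcna3 and Kcna10, both at 0, flank Kcna2 at 225 CPM on chromosome 3, with gaps of 52.8 and 68.1 kb. Kcna5 at 2.06 CPM, Kcna1 at 208 CPM and Kcna6 at 138 CPM lie in a similar row on chromosome 6. Neighbours in both clusters thus differed widely in counted level, and whether the 3′ ends of the low ones were annotated was not tested.

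The spread between libraries of the same genotype had a median of 0.29 on the log2 scale over the 65 tested members, against 0.22 over the 13065 genes tested, at median levels of 23.9 and 23.2 CPM. Kcnj3 (0.08) and Kcnc2 (0.10) varied least, Kcna5 (0.71) and Kcnk4 (0.63) most. The libraries that stood apart took the extreme places in some members: in 9, or 13.8% against 6.10% of all genes tested, those 3 libraries were the 3 highest. The 9 were Kcna6, Kcnab3, Kcnc4, Kcnip3, Kcnj11, Kcnj12, Kcnj4, Kcns1 and Kcnt1. Kcnab3, for example, stood at 135, 108 and 116 CPM in them and at 52.6 to 81.0 CPM in the other 9 libraries. In 2 members, Kcnj6 among them, they were the 3 lowest, a share of 3.08% against 4.29% of all genes.

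**Figure D2:**
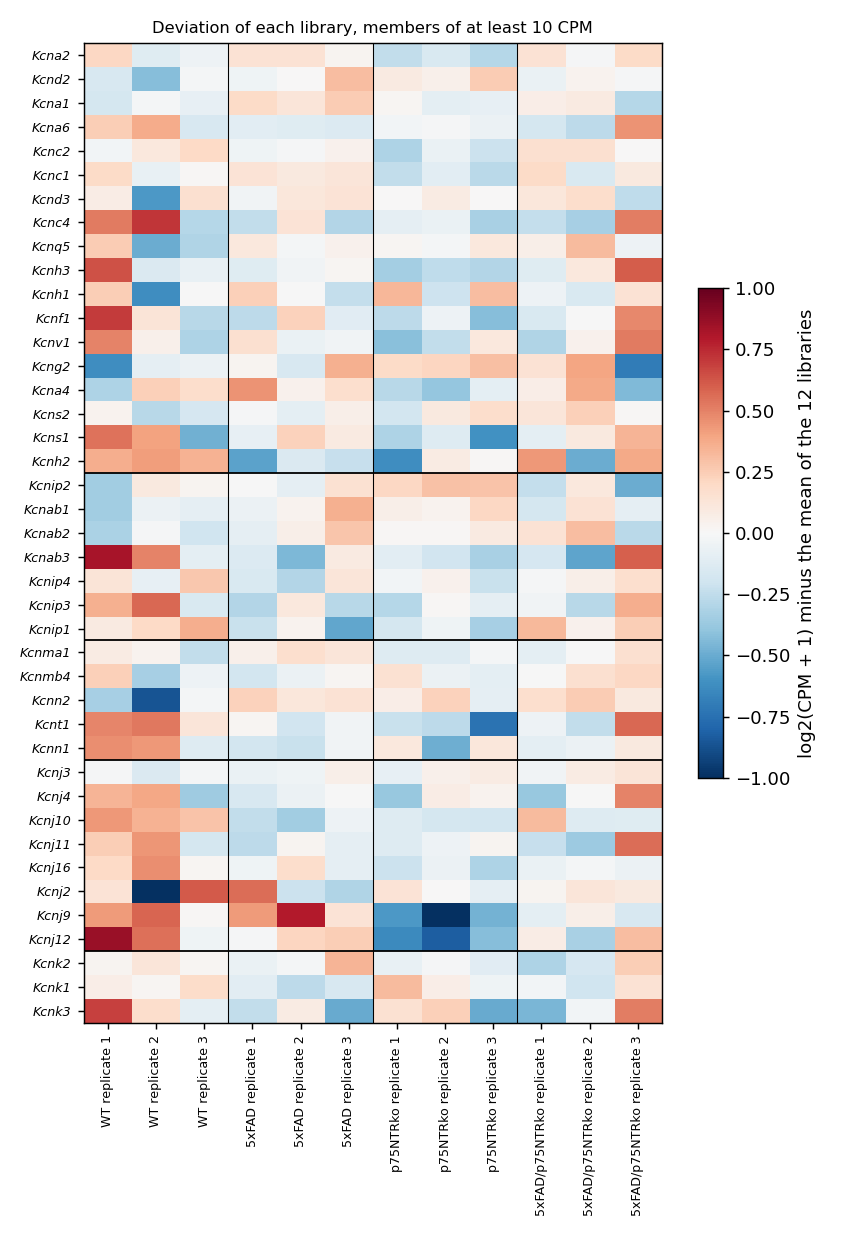
Deviation of each library from the mean of the 12, in log2(CPM + 1), for the same members with a mean of at least 10 CPM; rows are genes grouped by class, columns libraries grouped by genotype. WT replicates 1 and 2 and 5xFAD/p75NTRko replicate 3 share the red cells of Kcnab3, Kcnc4, Kcna6 and Kcnj4, and the p75NTRko libraries the blue cells of Kcnj9 and Kcnj12.

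No member passed an adjusted p of 0.05 in any of the 7 comparisons by edgeR's quasi-likelihood test, adjusted over all 13065 genes. Few genes of any kind did: 0.0536% in 5xFAD against WT, 0.0383% in 5xFAD/p75NTRko against 5xFAD, 0.0383% in the interaction and 0.0995% in the comparison of all 4 genotypes, and 0 genes in the others. The differences that follow are therefore levels and unadjusted p-values, read against the share of all genes that had an unadjusted p this small. Comparisons with WT share its 3 libraries, and values of several comparisons are given side by side for that reason.

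In 5xFAD against WT, the lowest p among the members was that of Kcnj10. It stood at 74.7, 70.4 and 67.4 CPM in WT and at 46.2, 43.0 and 53.0 CPM in 5xFAD, with no overlap. The difference was −0.58 on the log2 scale (SE 0.13) with an adjusted p of 0.116 by edgeR's quasi-likelihood test, while DESeq2 called it (adjusted p of 0.0154). Libraries labelled p75NTRko had 50.4, 48.7 and 48.3 CPM, and those labelled 5xFAD/p75NTRko 68.9, 50.3 and 50.5 CPM, so that replicate 1 of the cross lay within the WT range and the rest below it. In bulk tissue, fewer cells of a type and less RNA per cell cannot be told apart.

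Kcnj10 was set beside markers of thalamus and habenula, tissue that adjoins the hippocampus. Of 18 such markers 14 could be tested and none was at 0 in all libraries. Their summed level was 662 to 942 CPM in WT, 462 to 546 CPM in 5xFAD, 449 to 461 CPM in p75NTRko and 398 to 1087 CPM in 5xFAD/p75NTRko libraries. The 4 libraries with the highest score, 4.61 to 5.29, were the 4 with the most Kcnj10, namely all of WT and replicate 1 of the cross. Within these 4 the level did not rise with the score: WT replicate 1, with the lowest score, had the most Kcnj10 (74.7 CPM). Among the other libraries, 5xFAD replicate 2 had the highest score (4.37) and the least Kcnj10 (43.0 CPM). With that score as a term the log2 difference between 5xFAD and WT was −0.45 and its adjusted p 0.260 by edgeR, and the part of adjoining tissue in it was not otherwise tested. All 10 astrocyte markers were tested, and their summed level was 5746 to 6347 CPM in WT and 5880 to 6051 CPM in 5xFAD. Slc1a2 made up much of this sum, with a mean of 3016 CPM. The astrocyte score, the mean log2 CPM of the 10, was 7.736 to 7.799 in WT and 7.600 to 7.748 in 5xFAD, a narrow overlap. The part of astrocyte content in the Kcnj10 difference was not tested.

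**Figure D3:**
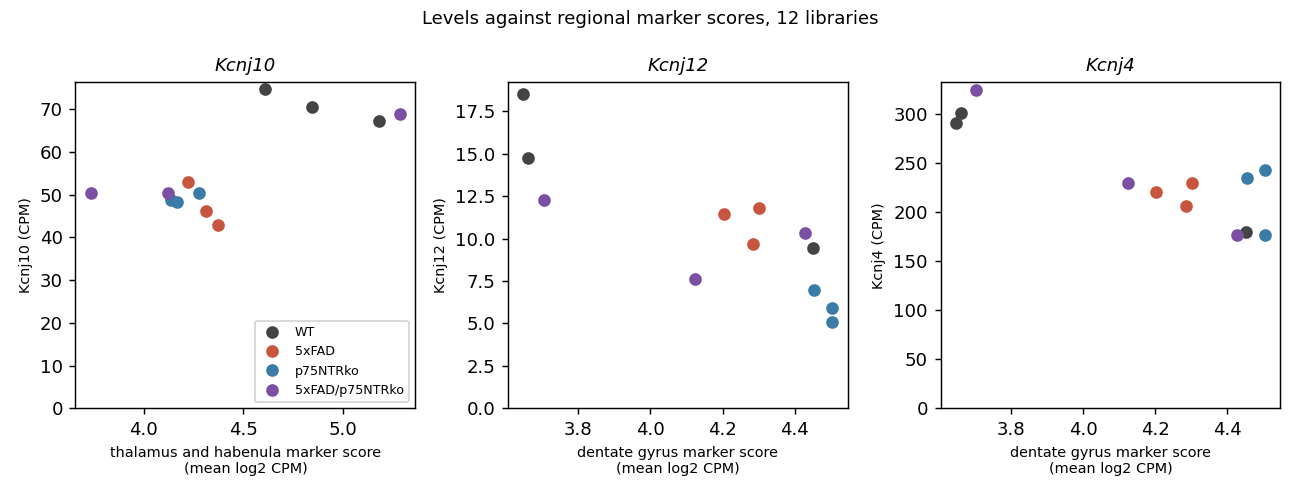
Level of 3 inward rectifier genes in CPM against the score of regional markers, the mean log2 CPM of the list, with 1 point per library coloured by genotype. The 4 libraries with thalamus and habenula scores of 4.61 to 5.29 hold 67.4 to 74.7 CPM of Kcnj10, and the 3 libraries with dentate gyrus scores of 3.65 to 3.70 hold the highest levels of Kcnj12 and Kcnj4.

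Of the 65 tested members, 7 were higher and 10 lower in 5xFAD at an unadjusted p under 0.05, where 7.73% and 6.14% of all genes were, and the median difference was −0.04 beside 0.00 over all genes. The groups did not overlap for 6 members higher and 6 lower in 5xFAD, beside 10.5% and 9.02% of all genes. Kcnn2 followed Kcnj10 among the smallest p-values, at 29.7, 20.3 and 37.2 CPM in WT and 44.3, 40.7 and 41.7 CPM in 5xFAD. The groups did not overlap (log2 difference 0.54, SE 0.17, adjusted p of 0.243 by edgeR), but the low WT values were those of replicates 1 and 2. Against WT replicate 3 alone, the highest WT library in this gene, the difference was 0.19. Kcnk10, a K2P channel of the TREK group, stood at 0.897, 0.974 and 1.16 CPM in WT and 2.89, 1.50 and 2.52 CPM in 5xFAD (log2 difference 1.18, SE 0.38, adjusted p of 0.245 by edgeR), close to the level of 3 counts. Kcne4, a beta subunit that inhibits Kcna channels, went from 4.18, 10.5 and 6.47 CPM to 3.91, 2.82 and 2.31 CPM (log2 difference −1.21, SE 0.39, adjusted p of 0.246 by edgeR), and the difference was −0.60 with the Xist class, estimated within p75NTRko, as a term.

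By class, 5 of the 9 auxiliary members were among the lower ones in 5xFAD: Kcne4, Kcnip1, Kcnab3, Kcnip3 and Kcne1l. The groups overlapped in Kcnab3, Kcnip3 and Kcne1l. High WT values of Kcnab3 (135 and 108 CPM) and Kcnip3 (46.5 and 54.4 CPM) were those of replicates 1 and 2, which stood apart. Kcne4 and Kcne1l were highest in WT replicate 2, at 10.5 and 15.7 CPM. Kcnab1 was among the higher ones, by 0.28 on the log2 scale. Among pore subunits, Kcnh2, an ERG channel, was lower (16.4, 17.0 and 16.3 CPM in WT, 8.32, 11.3 and 10.5 CPM in 5xFAD), and Kcna1 and Kcnd2 were among the higher ones, by 0.28 and 0.29 on the log2 scale. Since all WT libraries were high and all 5xFAD libraries low in Xist, sex and genotype cannot be told apart in this comparison alone. With the Xist class as a term, 0 members were higher and 2 lower at that p, beside 2.53% and 2.25% of all genes in that fit. Against WT replicate 3 alone, 4 of 66 tested members were higher and 5 lower, beside 3.85% and 4% of all genes.

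In p75NTRko against WT, inward rectifiers had the 3 smallest p-values, all with the lower level in p75NTRko. All WT libraries were high in Xist, but only replicate 1 of p75NTRko was, so sex and label cannot be cleanly separated in this comparison. Kcnj12, a strong classical rectifier, stood at 18.5, 14.8 and 9.46 CPM in WT and at 5.93, 5.06 and 6.99 CPM in p75NTRko. Kcnj9, a G-protein-gated subunit, stood at 13.6, 15.3 and 9.95 CPM in WT and at 6.30, 3.91 and 6.84 CPM in p75NTRko. Neither pair of groups overlapped. The log2 difference was −1.23 for Kcnj12 (SE 0.26, adjusted p of 0.154) and −1.16 for Kcnj9 (SE 0.25, adjusted p of 0.160) by edgeR's quasi-likelihood test. Kcnj10 followed with −0.53 (SE 0.13, adjusted p of 0.221 by edgeR).

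In the other genotypes the order of levels differed between these members. Kcnj9 was at 13.6, 17.8 and 10.9 CPM in 5xFAD, where it overlapped WT. In 5xFAD/p75NTRko it was at 9.16, 10.3 and 8.69 CPM, which overlapped WT and lay between p75NTRko and 5xFAD. Kcnj12 was at 9.68, 11.5 and 11.8 CPM in 5xFAD and 10.3, 7.60 and 12.3 CPM in 5xFAD/p75NTRko. In the RefSeq table of GRCm38.p6, Kcnj9 (chr1:172320508-172329322) and Kcnj10 (chr1:172341210-172374085) are neighbours with a gap of 11.9 kb. In 5xFAD, Kcnj10 lay below the WT libraries while Kcnj9 overlapped them. Kcnj12 lies elsewhere, at chr11:61022564-61073269.

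Several lists of regional markers did not overlap between WT and p75NTRko. Thalamus and habenula markers were lower in p75NTRko, as given above, and so were striatum markers (14 of 16 tested, 2 at 0 in all libraries), with a summed level of 312 to 365 CPM in WT, 262 to 283 CPM in 5xFAD, 254 to 277 CPM in p75NTRko and 251 to 259.8 CPM in 5xFAD/p75NTRko. Dentate gyrus markers were higher in p75NTRko. All 8 were tested, none was at 0 in all libraries, and their summed level was 199 to 309 CPM in WT, 266 to 279.8 CPM in 5xFAD, 336 to 343 CPM in p75NTRko and 217 to 283 CPM in 5xFAD/p75NTRko. With the dentate gyrus score as a term, the log2 difference of Kcnj12 was −0.74 (adjusted p of 0.637 by edgeR) and that of Kcnj9 −0.89 (0.564). With the thalamus and habenula score they were −1.30 and −1.23 (adjusted p of 0.182 and 0.191 by edgeR). With the Xist class they were −1.27 and −1.04 (adjusted p of 0.816 for both by edgeR). Against WT replicate 3 alone, the lowest WT library in both genes, they were −0.64 and −0.77. The part of other regions in these differences was not otherwise tested. DESeq2 called both (adjusted p of 0.0165 for Kcnj12 and 0.0257 for Kcnj9), as did edgeR with no filter on low counts. The score of 8 GABAergic interneuron markers was 6.17 to 6.37 in WT, 5.91 to 6.03 in 5xFAD, 5.93 to 6.09 in p75NTRko and 5.96 to 6.31 in 5xFAD/p75NTRko. Their summed level overlapped between WT (1018 to 1189 CPM) and p75NTRko (953 to 1027 CPM). The part of interneurons in the differences of members was not tested.

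Over the class, 14 of 65 members, or 21.5%, were lower in p75NTRko at an unadjusted p under 0.05, where 6.16% of all genes were. Another 4 were higher, beside 5.33% of all genes. The groups did not overlap for 14 members with the lower and 7 with the higher level in p75NTRko, beside 8.5% and 7.93% of all genes, and the median difference was −0.12 beside 0.00. Against WT replicate 3 alone, 7 of 66 tested members were lower and 2 higher, beside 3.84% and 2.49% of all genes, and the median was 0.05 beside 0.00. With the Xist class as a term, 6 were lower and 1 higher, beside 3.49% and 2.5% of all genes.

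The 14 with the small p held 4 inward rectifiers (Kcnj12, Kcnj9, Kcnj10 and Kcnj16) and 7 of the 28 tested voltage-gated pore subunits. Also among them were Kcnt1 and the auxiliary Kcnab3 and Kcnip1, but no K2P member. Kcnc1, Kcnc2 and Kcnc4 were included, Kcnc2 with 93.8, 103 and 109.8 CPM in WT and 76.9, 91.3 and 82.4 CPM in p75NTRko. Kcnt1 went from 24.7, 25.3 and 18.9 CPM to 14.6, 14.3 and 9.96 CPM (log2 difference −0.84, SE 0.22, adjusted p of 0.251 by edgeR). Kcnt1, Kcnj12, Kcnab3 and Kcnc4 are among the 9 members that were highest in the libraries that stood apart, which include WT replicates 1 and 2. Among the higher members, Kcnd2 had 192, 159.7 and 211 CPM in WT and 228, 222 and 255 CPM in p75NTRko (0.33, SE 0.12, adjusted p of 0.347 by edgeR), and 0.16 against WT replicate 3 alone, the highest WT library in this gene. Its accessory Kcnip2 had 110.3, 150.1 and 143 CPM in WT and 162, 173 and 171 CPM in p75NTRko. Kcnmb4os2 had 2.09, 1.62 and 2.32 CPM in WT and 4.45, 5.29 and 2.97 CPM in p75NTRko (1.04, SE 0.37, adjusted p of 0.348 by edgeR). This noncoding gene overlaps the BK beta subunit gene Kcnmb4, and reads of the pair could be mixed.

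**Figure D4:**
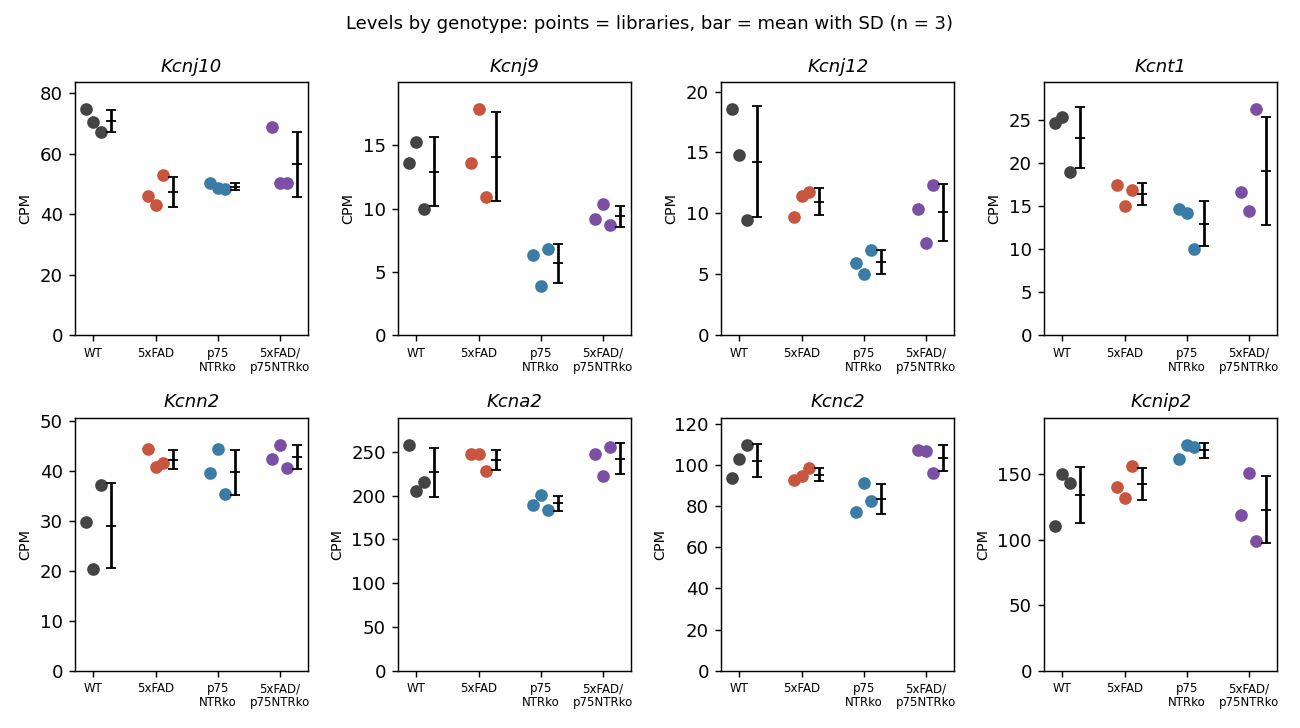
Levels of 8 members in CPM by genotype, with 1 point per library and, beside the points, the mean with SD (n = 3). WT lies above 5xFAD and p75NTRko in Kcnj10, p75NTRko lies lowest in Kcnj9, Kcnj12 and Kcna2, and the low points of Kcnn2 are WT libraries.

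In 5xFAD/p75NTRko against p75NTRko, which sets the transgenes on the receptor label, 8 of 65 members were higher and 1 lower at an unadjusted p under 0.05, beside 3.6% and 2.99% of all genes. The groups did not overlap for 9 members higher and 3 lower in the cross, beside 6.54% and 5.74%. Kcna2 stood at 189, 201 and 184 CPM in p75NTRko and at 248, 223 and 256 CPM in the cross (log2 difference 0.34, SE 0.10, adjusted p of 0.607 by edgeR). Kcnc2 was at 107, 107 and 96.1 CPM in the cross, above its p75NTRko values (0.31, SE 0.10, adjusted p of 0.673 by edgeR). Kcnip2, the lower one, was at 119, 150.9 and 99.5 CPM in the cross (−0.45, SE 0.14, adjusted p of 0.673 by edgeR). In each of the 3 the groups did not overlap. The other higher members were Kcnj12, Kcnj9, Kcnt1, Kcnh3, Kcnc1 and Kcnip1. Kcnj12 differed by 0.74 and Kcnj9 by 0.69 on the log2 scale (adjusted p of 0.711 for both by edgeR). The p75NTRko libraries are shared with the comparison with WT. The second smallest p among the lower values was that of Kcnj14, a classical rectifier of low level with means of 3.49 ± 0.769 and 2.18 ± 1.14 CPM (SD, n = 3). All libraries of the cross were high in Xist, but only replicate 1 of p75NTRko was, so sex and genotype cannot be cleanly separated here. With the Xist class as a term, 3 members were higher and 1 lower at an unadjusted p under 0.05, beside 2.43% and 2.64% of all genes. Without 5xFAD/p75NTRko replicate 3 and the other libraries that stood apart, 8 were higher and 2 lower, beside 5.81% and 4.42% of all genes in that fit.

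In 5xFAD/p75NTRko against 5xFAD, 1 member was higher and 3 were lower, beside 1.98% and 3.1% of all genes, so the shares were near the background. The groups did not overlap for 2 members higher and 4 lower, beside 5.18% and 6.02%. The higher one was Kcnip1, an interneuron calcium sensor of Kcnd channels, with 10.02, 12.2 and 7.99 CPM in 5xFAD and 15.2, 12.3 and 14.3 CPM in the cross (adjusted p of 0.878 by edgeR). Its gene overlaps Kcnmb1, which had a mean of 0.663 CPM, and reads of the 2 could be mixed. The lower ones were Kcnj9, Kcna1 and Kcnmb2, the BK beta subunit that inactivates the channel, with 10.02, 12.2 and 9.68 CPM in 5xFAD and 8.99, 6.43 and 7.54 CPM in the cross (−0.47, SE 0.19). All 5xFAD libraries were low and all of the cross high in Xist, and with the Xist class as a term the difference of Kcnmb2 was −0.25. Kcnh2, next among the higher values, had 10.04 ± 1.53 and 14.2 ± 4.84 CPM (SD, n = 3) and overlapped, and its difference of 0.51 was 1.24 with the Xist class as a term.

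In 5xFAD/p75NTRko against WT, 2 members were higher and 2 lower, beside 5.51% and 4.44% of all genes. The groups did not overlap for 2 members in each direction, beside 5.95% of all genes higher and 5.53% lower. Kcnn2 (42.5, 45.2 and 40.5 CPM in the cross, log2 difference 0.56, SE 0.17, adjusted p of 0.425 by edgeR) and Kcnk10 (2.00, 1.56 and 1.97 CPM) were the higher ones. Kcnj10 and Kcne4 were the lower ones, and both overlapped WT. The 2 remaining libraries of the cross differed from WT replicate 3 alone by 0.24 in Kcnn2 and by −0.17 in Kcnj10, in place of −0.32, where that library is the highest WT library in Kcnn2 and the lowest in Kcnj10.

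**Figure D5:**
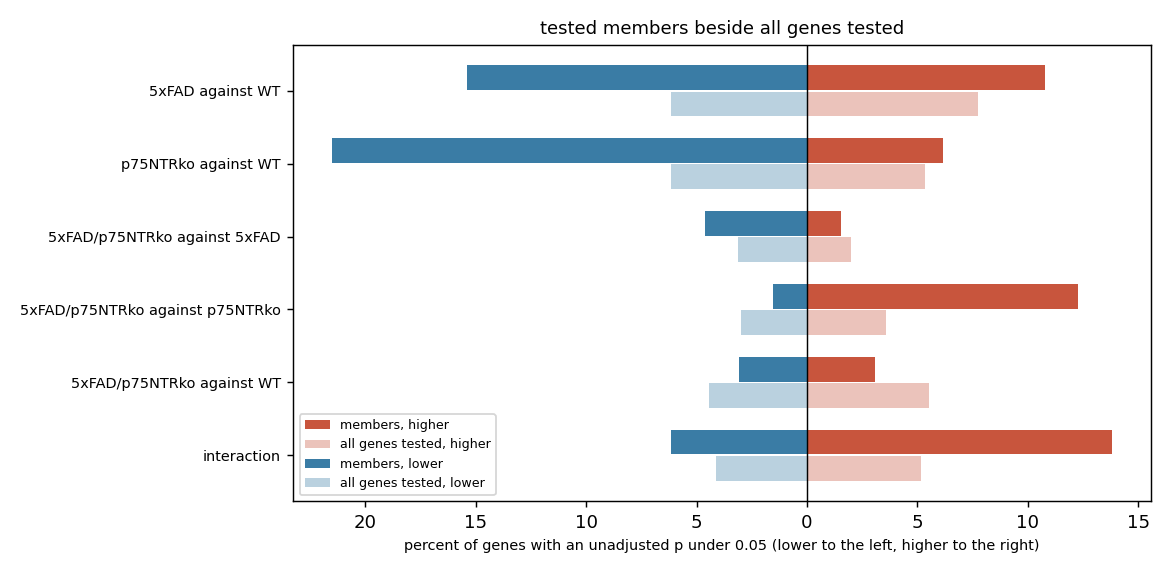
Percent of the 65 tested members (full colour) and of all 13065 genes tested (pale) with an unadjusted p under 0.05, by comparison, with lower levels to the left and higher to the right. Among the shares above the background are members lower in p75NTRko against WT (21.5% against 6.16%) and lower in 5xFAD against WT (15.4% against 6.14%). So are those positive in the interaction (13.8% against 5.19%) and higher in the cross against p75NTRko (12.3% against 3.6%). These comparisons share libraries and are not separate observations.

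The interaction asks whether the transgene difference itself differs between mice with and without the receptor label. At an unadjusted p under 0.05 it was positive in 9 members and negative in 4, beside 5.19% and 4.13% of all genes. Kcnj10 had the smallest p: its 5xFAD difference was −0.58 without the label and 0.20 with it, an interaction of 0.79 (SE 0.18, adjusted p of 0.305 by edgeR). Kcnip1 followed at 0.91 (SE 0.26, adjusted p of 0.359 by edgeR), while Kcnip2 (−0.54) and Kcnd2 (−0.44), which form a channel together, had the smallest p-values among the negative ones. The contrast runs along with Xist, which was high in all WT and 5xFAD/p75NTRko libraries, low in all of 5xFAD and low in 2 of 3 of p75NTRko, so sex and the interaction cannot be cleanly separated. With the Xist class as a term, 3 members were positive and 0 negative, beside 1.96% and 2.02% of all genes, and the adjusted p was 0.998 for each of these 4 genes by edgeR. With WT replicate 3 as the only WT library, 4 were positive and 3 negative, beside 3.54% and 2.96%, and the value of Kcnip2 was −0.32.

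Across the 4 genotypes together, 14 members had an unadjusted p under 0.05, or 21.5% beside 10.4% of all genes. Kcnj9 (adjusted p of 0.125 by edgeR), Kcnj10 (0.165) and Kcnj12 (0.207) led, and all 3 are inward rectifiers. Kcnj3, the most abundant member, differed little. It had 398 ± 19.5 CPM in WT, 409.7 ± 19.2 CPM in 5xFAD, 419.8 ± 25.8 CPM in p75NTRko and 432 ± 24.3 CPM in 5xFAD/p75NTRko (SD, n = 3 each). Its differences from WT were at most 0.12 on the log2 scale, with a standard error of 0.08.

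Summed by class, the voltage-gated pore subunits held 1925 ± 92.9 CPM in WT, 1993 ± 55.0 CPM in 5xFAD, 1840.1 ± 9.20 CPM in p75NTRko and 1969.5 ± 70.3 CPM in 5xFAD/p75NTRko (SD, n = 3). The Kcna family held 595 ± 35.1, 625 ± 9.65, 541 ± 9.83 and 605 ± 23.0 CPM in the same order, and the Kcnc family 322 ± 9.75, 336 ± 3.79, 283 ± 9.23 and 326 ± 27.1 CPM. These sums are descriptions and were not tested.

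Genes that work with potassium channels but do not bear the Kcn name were counted from lists. Of 14 accessory proteins, among them the Kcnd partners Dpp6 and Dpp10 and the axonal clustering proteins Cntnap2 and Cntn2, 11 were tested. All 14 scaffold, calmodulin and ankyrin genes, all 10 pumps and cotransporters and 3 of 4 Hcn channel genes were tested too. None passed the adjusted threshold in any comparison. In 5xFAD against WT, 1 of the 11, 14, 10 and 3 genes tested was higher and 3 were lower at an unadjusted p under 0.05, and in p75NTRko against WT 1 was higher and 4 were lower. Over all genes these shares were 7.73% and 6.14% in 5xFAD and 5.33% and 6.16% in p75NTRko.

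Dlg4, which encodes the postsynaptic scaffold PSD-95, had the smallest p of its list in 5xFAD against WT, with 996 ± 155 CPM in WT and 582 ± 44.1 CPM in 5xFAD (SD, n = 3; log2 difference −0.78, SE 0.19, adjusted p of 0.157 by edgeR). Atp1b2, a glial sodium pump subunit and one of the astrocyte markers, had 244 ± 12.9 CPM in WT and 191 ± 14.7 CPM in p75NTRko (−0.36, SE 0.12, adjusted p of 0.331 by edgeR). Dpp10 had 109.5 ± 48.4 CPM in WT and 52.4 ± 8.18 CPM in p75NTRko (−1.07, SE 0.37, adjusted p of 0.342 by edgeR).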

How the data were processed

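Hippocampal RNA was made into QuantSeq 3′ forward libraries, per the labels' protocols. The authors deposited raw counts of reads per gene symbol without normalization. FastQC, HISAT2, SAMtools, HTSeq and edgeR and the build mm10 are named, without roles or versions, per the submitters' processing notes, and the strand setting and annotation are not given in the sources used here. Overlapping and antisense pairs (Kcnip1 and Kcnmb1, Kcnd3 and Kcnd3os, Kcnmb4 and Kcnmb4os1, Kcnmb4 and Kcnmb4os2) are therefore uncertain. The 5 summary lines were left out; 28.9% to 33.5% of reads lay outside features and 32.2% to 38.5% were assigned.

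Counts were fitted in R 4.3.3 with edgeR 4.0.16: filterByExpr by genotype, TMM scaling, a mean per genotype over all 12 libraries and quasi-likelihood tests, where adjusted p (Benjamini-Hochberg, all 13065 genes) had to be under 0.05. The common biological coefficient of variation was 13.8%. CPM used TMM-scaled sizes and log2 CPM a prior count of 2. Levels at or under 3 counts were taken as the limit of measurement, which covers counting error only since reads carry no molecular identifiers. Libraries of a genotype differed by more than sampling noise (chi-square per degree of freedom of 3.03 to 16.8). The procedure was tested on simulated data.

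Named genes were the leader of each family, the 10 highest members, those of widest and narrowest spread, and in each comparison the 2 smallest p-values in each direction; Kcnj9, Kcnj12 and Kcnt1 and other members in some sentences were chosen after their values were seen. Members, lists and marker sets were chosen with earlier results of these data known. Alternatives were DESeq2 1.42.0, RLE factors, no filter, a stricter filter (mean count of 50 or more), fits limited to the genotypes at hand, the replicate number, the Xist class or a regional marker score as a term, and each library left out. The dentate gyrus score and the joint omission of 3 libraries were added after seeing the data. Some items that the rules would name are not reported here.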

Additional observations from a re-analysis of the deposited data

How the results depend on the processing

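The count of members past the adjusted threshold was 0 in each comparison and stayed at 0 in 145 of 152 alternatives. DESeq2 gave 1 member in 5xFAD against WT (Kcnj10, adjusted p of 0.0154), 2 in p75NTRko against WT (Kcnj12 and Kcnj9) and 3 in the comparison of all 4 genotypes (Kcnj9 0.00431, Kcnj10 0.0156 and Kcnj12 0.0396). With no filter on low counts edgeR gave 2 in p75NTRko against WT (Kcnj12 0.0277 and Kcnj9 0.0377) and 1 across the 4 genotypes (Kcnj9 0.0360). Leaving out a library gave 0 to 1: without WT replicate 3, Kcnj12 in p75NTRko against WT (0.0310), and without 5xFAD/p75NTRko replicate 1, Kcnj10 across the 4 genotypes (0.0453). Over all alternatives the adjusted p of Kcnj10 in 5xFAD against WT ran from 0.0154 to 0.949, that of Kcnj12 in p75NTRko against WT from 0.0165 to 0.816 and that of Kcnj9 there from 0.0257 to 0.816. The cause was not tested.

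With replicate block, 0 members were called in each comparison. Deviations of same-numbered libraries correlated at −0.424 to 0.145 over 18 pairs and 2 of 12 libraries correlated best with their own number, so libraries are taken to share only a number. No named member reversed its direction in these alternatives. Members lower in p75NTRko against WT at an unadjusted p under 0.05 numbered 6 to 19 over the alternatives, and those higher in 5xFAD/p75NTRko against p75NTRko 3 to 10. Depth limits the members near 3 counts, such as Kcnk10 and Kcna5.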

Other observations

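The electrically silent subunits, which modify other Kv channels and form no channel alone, differed in the order of genotypes. Kcnf1 had 31.7 ± 11.2 CPM in WT, 26.1 ± 4.91 in 5xFAD, 22.5 ± 3.09 in p75NTRko and 29.5 ± 7.27 in 5xFAD/p75NTRko (SD, n = 3), whereas Kcng2 had 19.6 ± 4.16, 24.8 ± 4.80, 27.6 ± 1.14 and 23.5 ± 8.66 CPM in the same order. Among the libraries that stood apart, Kcng2 was at 14.8 CPM in WT replicate 1 and 13.9 CPM in 5xFAD/p75NTRko replicate 3, and Kcnf1 at 43.9 and 37.7 CPM, whereas WT replicate 2 had 21.7 CPM of Kcng2 and 29.4 CPM of Kcnf1, within the range of the other libraries. The adjusted p stayed above the threshold for both in each comparison by edgeR's quasi-likelihood test.

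Kcnj2, a classical rectifier, had the lowest and the highest of its 12 values in the same genotype, at 5.03 CPM in WT replicate 2 and 18.7 CPM in WT replicate 3. Its within-genotype spread of 0.54 on the log2 scale lay well above that of its neighbour on chromosome 11, Kcnj16 (0.15), at a gap of 38.2 kb. Kcnh4 was the 1 member within 10 Mb of Ngfr, with a mean of 0.753 CPM, too low to test.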
